A study of Mus musculus with 24 samples.

Results

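Oxidative phosphorylation genes were followed in the hippocampus of mice with or without CBP in forebrain excitatory neurons. Members were taken by name, not by their values: rows of the count matrix whose symbol began with Nduf, Sdha to Sdhd, Uqcr, Atp5 or Cox4 to Cox8, plus the 13 protein-coding genes of mitochondrial DNA. After 13 rows named or annotated as pseudogenes were set aside, of which Ndufb1-ps is annotated as a long noncoding RNA and had a mean count of 2000.08, 111 of 55471 rows qualified, and they comprised 98 nuclear and 13 mitochondrial genes. Of the nuclear genes, 36 encode subunits of complex I, 4 of complex II, 8 of complex III, 19 of complex IV and 17 of complex V, and 14 encode assembly or associated factors.

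Oxidative phosphorylation is carried out in the inner mitochondrial membrane. Complexes I and II pass electrons from NADH and succinate to ubiquinone, complex III passes them on to cytochrome c, and complex IV delivers them to oxygen. Complexes I, III and IV pump protons as they do so, and complex V, the ATP synthase, uses the return of those protons to make ATP, on which firing neurons depend heavily. All subunits of complex II are encoded in the nucleus, whereas the other complexes combine nuclear subunits with a few that are encoded by mitochondrial DNA and transcribed inside the organelle. CBP, encoded by Crebbp, is a lysine acetyltransferase and transcriptional coactivator in the nucleus.

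Whole hippocampus of 12 female C57BL/6 mice (C57BL/6J in the study's methods) aged 3 to 6 months was sequenced, with 3 mice in each of 4 groups. CBP-ifKOs carried floxed Crebbp alleles and the tamoxifen-inducible CaMKIIα-creERT2 driver, and controls were littermates without the driver. All mice received tamoxifen. Each genotype was housed either in standard cages (SC) or in an enriched environment (EE) for about 1 month. The driver acts in forebrain excitatory neurons, so glia, vessels and most interneurons of a CBP-ifKO kept CBP, and fewer cells of a type cannot be told apart from less RNA per cell.

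Total counts ranged from 26874015 to 27971488 in controls and from 28582210 to 37448388 in CBP-ifKOs. Every CBP-ifKO count was even, so these totals may overstate the depth, and halved they ranged from 14291105 to 18724194. Levels are given as normalized CPM, counts scaled to a common library size (CPM) with the trimmed mean of M-values (TMM). A count of 3 corresponded to between 0.0801 and 0.112 CPM. Crebbp was at 69.6 to 81.9 normalized CPM in the 6 controls and at 44.5 to 51.5 in the 6 CBP-ifKOs, and it was called in SC (log2 fold change -0.58, SE 0.06, adjusted p = 0.000542) and in EE (-0.64, SE 0.06, adjusted p = 0.000407). Summed excitatory neuron markers overlapped between genotypes, at 5565 to 6115 normalized CPM in controls and 5240 to 6021 in CBP-ifKOs. Interneuron markers were lower in CBP-ifKOs without overlap in SC (771 to 808 against 830 to 893) and in EE (794 to 824 against 846 to 920), as were microglial markers in SC (229 to 251 against 257 to 261) and in EE (224 to 229 against 239 to 265). In SC, endothelial markers (136 to 148 against 161 to 166) and choroid plexus markers (35.7 to 39.2 against 47.5 to 54.0) also did not overlap, and in EE astrocyte markers (3103 to 3244 against 3365 to 3728) did not. Choroid plexus markers reached 1252 in control EE mouse 1 and stayed between 35.6 and 62.9 in the other 11 mice. No marker gene was at 0 in any mouse, and the part of cell composition in the values below was not tested.

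Several members have near-identical copies elsewhere in the genome. Among the 13 mitochondrial genes, 7 held enough counts to be tested. The other 6 were at or near 0: mt-Nd3 had a mean count of 1.67, and mt-Nd4l, mt-Co2, mt-Co3, mt-Atp6 and mt-Atp8 were at 0 in all 12 mice. The coding sequence of mt-Co2, which encodes a core subunit of complex IV, matched the nuclear pseudogene Gm28661 at every one of 681 aligned bases. Reads that map to both places have a low mapping quality, and alignments with a mapping quality of 10 or less had been discarded. The start of both sequences is shown because no 50-base read could tell them apart (GENCODE transcripts, GRCm38, mt-Co2 at chrM:7013-7112 on the plus strand and Gm28661 at chr1:24615466-24615565 on the minus strand, with no capitals because no base differed).
mt-Co2: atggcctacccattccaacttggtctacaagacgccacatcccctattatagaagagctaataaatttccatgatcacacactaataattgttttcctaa
Gm28661: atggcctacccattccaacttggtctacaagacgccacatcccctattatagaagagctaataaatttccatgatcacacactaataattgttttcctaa

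Every 50-base window of mt-Co2 recurred in another annotated gene, as did 99.9% of those of mt-Co3, 99.5% of mt-Atp6, 98.8% of mt-Nd4l and 97.99% of mt-Nd3. The share was 62.2% for mt-Nd4 and 51.1% for mt-Co1, which were nevertheless counted at 3980 CPM or more in every mouse, and 0% for mt-Nd1, mt-Cytb and mt-Nd6. For mt-Atp8 it was also 0%, so its zero counts have no value of this kind beside them. The part of discarded reads in the levels of mt-Nd4 and mt-Co1 was not tested. Among nuclear genes, Cox8b had a mean count of 4.25, and Cox8c and the second of the Atp5o rows were at 0. In all, 102 members were tested, of which 95 were nuclear.

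Transcripts of the mitochondrial genome were far more abundant per length than those of the nuclear subunits. The median over the 7 tested mitochondrial genes was 4693 normalized CPM per kb, against 31.3 over the 95 tested nuclear genes. mt-Cytb, the cytochrome b of complex III, was highest at 7923 normalized CPM per kb, followed by mt-Nd1 at 7133 and mt-Co1 at 5908, and mt-Nd5 was lowest of the 7 at 2135.

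Nuclear levels followed the complexes only loosely. Median levels were 35.3 normalized CPM per kb for complex I, 64.8 for complex II, 77.3 for complex III, 25.3 for complex IV, 35.8 for complex V and 12.8 for assembly and associated factors. The α subunit of the catalytic head of ATP synthase, Atp5a1, was the most abundant nuclear transcript at 296 normalized CPM per kb. The extremes within complex I were Ndufa1 at 88.1 and Ndufs5 at 2.73, within complex II the flavoprotein Sdha at 119 and the membrane anchor Sdhc at 26.1, and within complex III Uqcr10 at 113 and Uqcrb at 26.2. The associated factor Cox7a2l, which takes part in supercomplex assembly, was at 32.5 and the complex II assembly factor Sdhaf1 at 2.59.

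**Figure D1:**
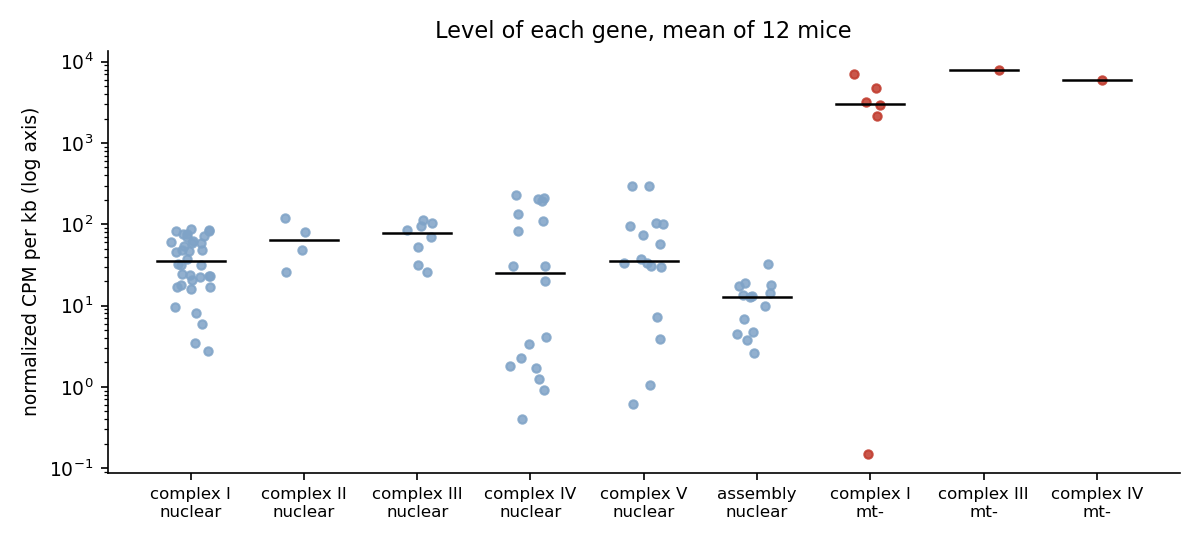
Level of each member in normalized CPM per kb of exon, averaged over the 12 mice, on a log axis, by complex and by genome. Each point is a gene and each line a median. The tested mitochondrial genes sit at 2135 or above, the untested mt-Nd3 at 0.151 and the nuclear genes at 296 or below.

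Complex IV and complex V include subunits with tissue-specific isoforms, and in each pair the widely expressed isoform was the more abundant. Cox4i1 was at 207 normalized CPM per kb and Cox4i2, the isoform known from lung, at 1.25. Cox6a1 was at 208 and the heart and muscle isoform Cox6a2 at 4.12. Cox7a2 was at 111 and the muscle isoform Cox7a1 at 2.28.

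The same order held for the remaining pairs. Cox8a was at 195 normalized CPM per kb against 0.400 for Cox8b, and Cox6b1, the most abundant nuclear subunit gene of complex IV, at 227 against 1.69 for the testis isoform Cox6b2. Ndufa4 was at 135 and the hypoxia-responsive Ndufa4l2 at 1.81. Of the genes that encode the c subunit of the ATP synthase rotor, Atp5g3 was at 100.2, Atp5g1 at 3.87 and Atp5g2 at 0.623. Atp5g1 shared 11.1% and Atp5g2 38.4% of their 50-base windows with other genes, and the part of unplaced reads in these low levels was not tested.

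Summed nuclear transcripts differed between genotypes by less than the spread of the control mice. In SC, the 98 nuclear genes summed to 9487, 8398 and 9342 normalized CPM in controls (9076 ± 591, SD, n = 3) and to 8501, 8958 and 8739 in CBP-ifKOs (8733 ± 228, SD, n = 3). In EE the sums were 9570, 8728 and 9866 in controls (9388 ± 590, SD, n = 3) and 9297, 9154 and 9358 in CBP-ifKOs (9270 ± 105, SD, n = 3). The ranges overlapped between genotypes in both housings, and the lowest control of each housing was mouse 2. Within CBP-ifKOs, all 3 EE sums lay above all 3 SC sums.

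Mitochondrial sums were 37819 to 41270 normalized CPM in SC controls and 36106 to 38610 in SC CBP-ifKOs. In EE they were 40616 to 44832 in controls and 37958 to 40605 in CBP-ifKOs, so that the EE groups did not overlap, by a narrow margin. The highest sum belonged to control EE mouse 1, the mouse with the choroid plexus markers. The ratio of mitochondrial to nuclear sums lay between 4.12 and 4.69 in all mice, with 4.35, 4.50 and 4.34 in SC controls, 4.54, 4.26 and 4.13 in SC CBP-ifKOs, 4.68, 4.69 and 4.12 in EE controls and 4.14, 4.15 and 4.34 in EE CBP-ifKOs. These ranges overlapped in every comparison.

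**Figure D2:**
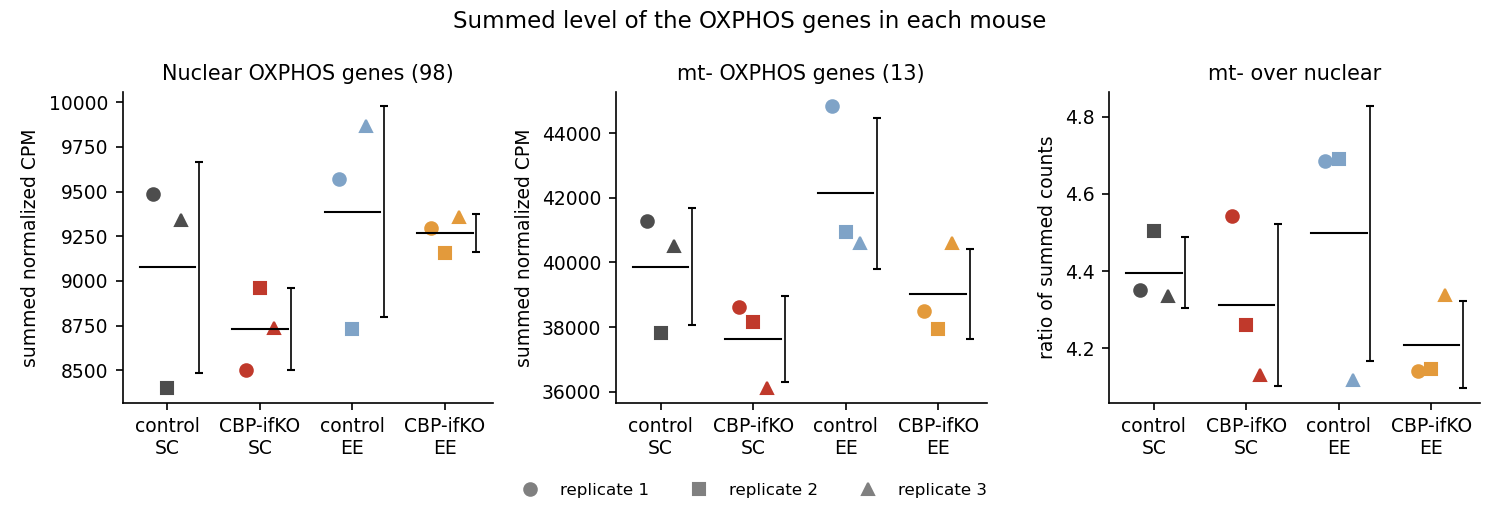
Summed normalized CPM of the nuclear and of the mitochondrial members and the ratio of the sums in each mouse, by group; circles, squares and triangles are mice 1, 2 and 3, the black line is the group mean and the bar the SD. Mouse 2 of both control groups lies below the other controls in the nuclear sum, at 8398 in SC and 8728 in EE.

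Control mouse 2 of either housing stood apart across the nuclear members. Relative to the mean of the 12 mice, the median log2 level of the 95 tested nuclear genes was -0.12 in the SC mouse and -0.08 in the EE mouse, and only 8 of 95 genes were above 0 in each. In the remaining controls this median was between 0.04 and 0.13. Gene length moved with it: genes of the longest quartile had a median of 0.08 in the SC mouse and 0.07 in the EE mouse, and 77 cytosolic ribosomal protein genes, mostly short, had medians of -0.10 and -0.09. Nuclear members are short as well, with a median exon length of 1675 bases against 3909 over all tested genes, and 66 of 95 fell in the shortest quartile. With gene-length offsets in the fit, the median nuclear log2 fold change between genotypes was -0.04 in SC and -0.02 in the average. Without offsets it was -0.06 and -0.03. Beyond such refits the part of length was not tested, and calls without these mice are given beside the results below.

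After loss of CBP in SC, no transcript of the 5 complexes was called as changed. No member was called in edgeR's quasi-likelihood test at an adjusted p of 0.05, whereas 5.52% of the 17532 tested genes were called, 1.51% increased and 4.02% decreased. Unadjusted p was below 0.05 for 11 members, all lower in CBP-ifKOs, or 10.8%, against 20.5% of all genes; DESeq2 called 1 member. Between-group overlap gave the same picture, since 12 members (11.8%) had CBP-ifKO mice entirely above or below controls, 2 higher and 10 lower, against 25.9% of all genes. Differences were small and mostly of 1 sign: 84 of 102 members had negative log2 fold changes, with a median of -0.06 beside -0.0019 over all genes.

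The members with the smallest p in SC all missed the threshold. Ndufa5, an accessory subunit of the matrix arm of complex I, was at 61.7, 52.1 and 59.1 normalized CPM in controls (57.6 ± 4.97, SD, n = 3) and at 49.5, 45.7 and 48.7 in CBP-ifKOs (47.9 ± 2.01, SD, n = 3). The groups did not overlap, and the log2 fold change was -0.26 (SE 0.07, adjusted p = 0.0513). Ndufa5 was called in 6 of 11 other fits of the 6 mice or of all 12, among them DESeq2 and the replicate block, with adjusted p from 0.00781 to 0.0575 over the 11. Ndufa13, an accessory subunit of complex I, was at 95.7, 85.5 and 96.7 in controls and at 77.4, 82.0 and 83.1 in CBP-ifKOs (-0.20, SE 0.06, adjusted p = 0.0905). Cox7a2, a small subunit of complex IV, was at 112, 99.5 and 110 in controls and at 93.5, 97.9 and 97.1 in CBP-ifKOs (-0.16, SE 0.06, adjusted p = 0.148). Neither gene's groups overlapped, but the lowest control of each, mouse 2, came within a few CPM of the CBP-ifKOs.

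That mouse decided the count in SC. Without it, 16 members were called, all decreased, or 15.7% against 10.6% of all genes. They were Ndufa5, Ndufa10, Ndufa12, Ndufa13, Ndufb10, mt-Nd1 and mt-Nd6 of complex I, Sdhb of complex II, Uqcrh of complex III, Cox4i1, Cox6c and Cox7a2 of complex IV, and Atp5d, Atp5h, Atp5mpl and Atp5o of complex V. The median nuclear log2 fold change was then -0.11, whereas it was -0.02 without control SC mouse 1, -0.03 without control SC mouse 3 and -0.04 without CBP-ifKO SC mouse 1. Since the mouse was singled out by the levels of these same genes, the value without it is a description and does not replace the count of 0.

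In EE the balance of signs was even with all 6 mice. No member was called, against 4.57% of 17625 genes (1.03% increased and 3.53% decreased), and 51 members had positive and 51 negative log2 fold changes, with a median of -0.0008. Positive values were found for 28 of 95 nuclear members without control EE mouse 2 (median -0.06) and for 70 without control EE mouse 3 (median 0.05). Unadjusted p was below 0.05 for 2 members, mt-Nd5 and Ndufa5, both lower, or 1.96% against 19.6% of all genes, and DESeq2 called none. CBP-ifKO and control mice did not overlap for 7 members (6.86%), 2 higher and 5 lower, against 25.3% of all genes.

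mt-Nd5, a proton-pumping core subunit of complex I, was at 4378, 4353 and 3956 normalized CPM in EE controls and at 3852, 3794 and 3754 in CBP-ifKOs. The groups did not overlap, with a log2 fold change of -0.14 (SE 0.05, adjusted p = 0.120). Ndufa5 was at 62.5, 57.5 and 68.1 in controls and at 54.7, 53.9 and 54.7 in CBP-ifKOs (-0.20, SE 0.07, adjusted p = 0.152), again without overlap. mt-Cytb was at 9903, 9388 and 9561 in controls and at 9099, 8786 and 9128 in CBP-ifKOs (-0.09, SE 0.04, adjusted p = 0.266). Without control mouse 2 of EE, 1 member was called, Ndufa5, or 0.98% against 5.54% of all genes.

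With both housings averaged, Ndufa5 and mt-Nd5 were decreased in CBP-ifKOs. They were 2 of 102 members (1.96%), against 16.9% of the 18251 tested genes, 6.64% increased and 10.3% decreased. Ndufa5 fell by 0.23 on the log2 scale (SE 0.05, 95% interval -0.34 to -0.13, adjusted p = 0.00464), and it was lower in all CBP-ifKOs than in all controls of the same housing. mt-Nd5 fell by 0.11 (SE 0.04, 95% interval -0.19 to -0.03, adjusted p = 0.0450), but in SC its groups overlapped, at 3663, 4022 and 3910 in controls and 3893, 3622 and 3544 in CBP-ifKOs. mt-Nd5 shares 14 bases with mt-Nd6 on the opposite strand. The call of Ndufa5 was kept in each fit that left out 1 of the 12 mice, with log2 fold changes of -0.27 to -0.20, and that of mt-Nd5 in 3 of these 12, those without control SC mouse 1, CBP-ifKO SC mouse 1 or control EE mouse 3. Without any of the other 9 mice it missed the threshold, with an adjusted p of up to 0.121.

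**Figure D3:**
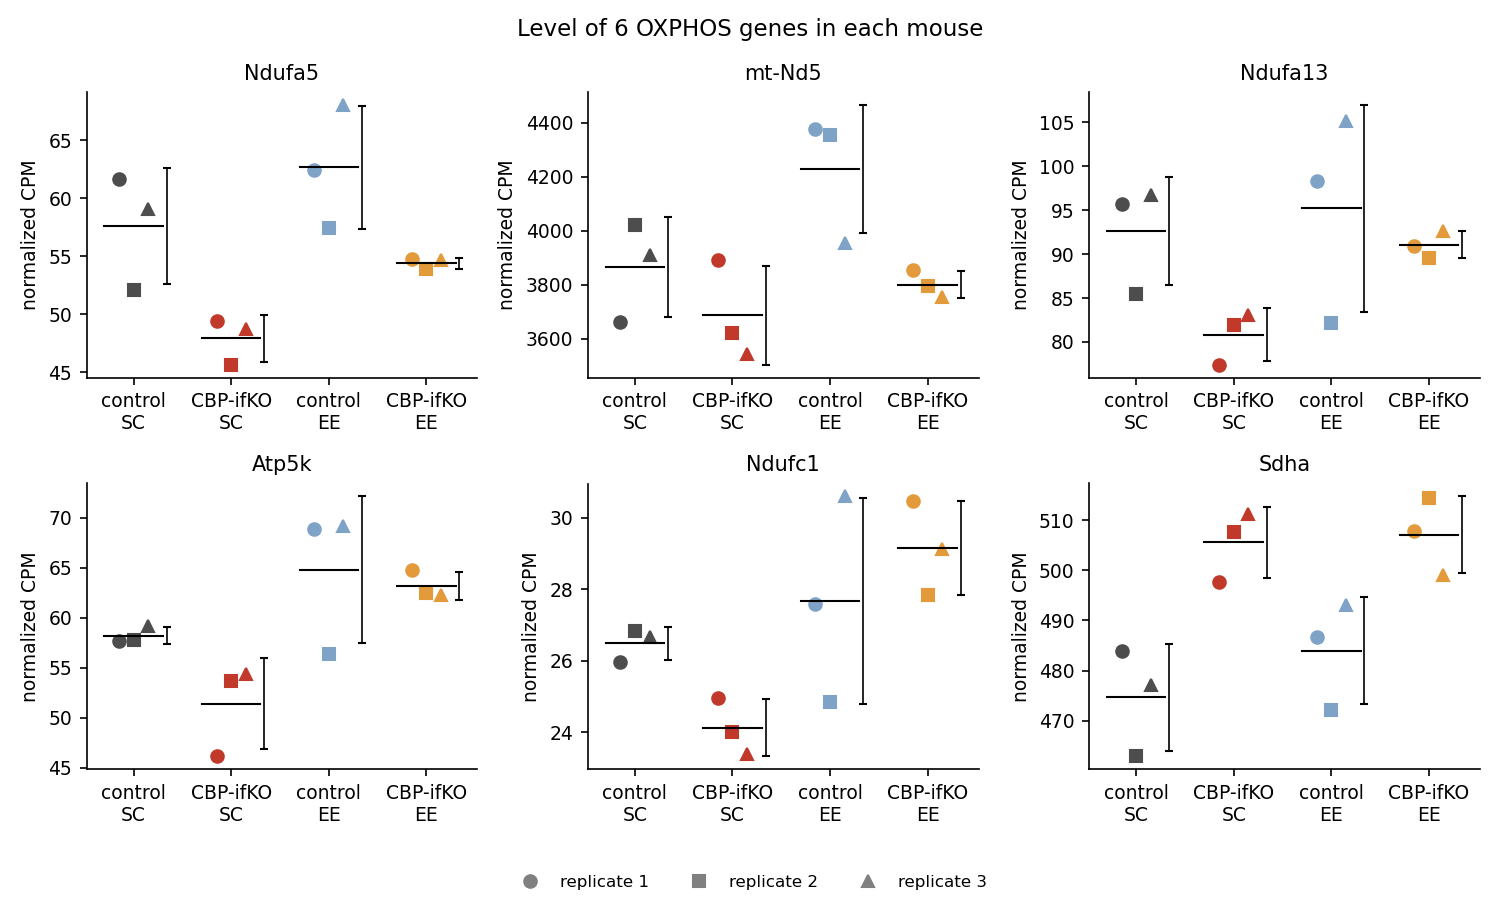
Normalized CPM of Ndufa5, mt-Nd5, Ndufa13, Atp5k, Ndufc1 and Sdha in each mouse, by group; circles, squares and triangles are mice 1, 2 and 3, the black line is the group mean and the bar the SD. Ndufa5 is lower in CBP-ifKOs than in controls of the same housing, and Sdha lies at 462.9 to 493.1 in controls and at 497.8 to 514.4 in CBP-ifKOs.

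The mitochondrial genes shared a sign. All 7 had negative genotype log2 fold changes in SC, in EE and in the average, with medians of -0.08, -0.10 and -0.10. The SC median was -0.04 without CBP-ifKO SC mouse 3, and the EE median -0.05 without control EE mouse 1. In the average, mt-Nd2 was at -0.11 (adjusted p = 0.0619), mt-Cytb at -0.09 (adjusted p = 0.0769), mt-Nd1 at -0.10 (adjusted p = 0.101), mt-Nd6 at -0.14 (adjusted p = 0.110), mt-Co1 at -0.09 (adjusted p = 0.116) and mt-Nd4 at -0.08 (adjusted p = 0.255). These genes are transcribed as long polycistronic precursors from the same small genome, so the 7 values are not independent of each other. Nuclear members had a median of -0.03 in the same average.

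Widely used marker subunits of each complex, core and accessory, showed where the values lay. For complex I, Ndufs1, the large iron-sulphur subunit, had an averaged log2 fold change of 0.00 (95% interval -0.07 to 0.07), and the flavoprotein Ndufv1 one of 0.01. For complex II, the iron-sulphur subunit Sdhb was at -0.09. For complex III, Uqcrc1 was at -0.02 and the Rieske protein Uqcrfs1 at -0.01. For complex IV, Cox4i1 was at -0.12 (adjusted p = 0.137) and Cox5a at -0.12 (adjusted p = 0.258). For complex V, the α subunit Atp5a1 and the catalytic β subunit Atp5b were at -0.01 and -0.04 (95% interval of Atp5b -0.11 to 0.04).

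Sdha lay in the other direction. It oxidises succinate and is often used as a reference gene, and it was at 463 to 493 normalized CPM in the 6 controls and at 498 to 514 in the 6 CBP-ifKOs. It was the only member of 102 (0.98%) whose 6 controls and 6 CBP-ifKOs did not overlap, against 8.55% of all genes. Its averaged log2 fold change was 0.08 (SE 0.03, 95% interval 0.02 to 0.14) and missed the threshold in edgeR (adjusted p = 0.0863), whereas DESeq2 called it, as did edgeR with gene-length offsets, which also called Sdhaf4 as increased. It also had the smallest spread between mice of a group, with a pooled SD of 0.0273 on the log2 scale against a median of 0.0984 over nuclear members.

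The averaged count also rested on the control mice numbered 2. Without the SC mouse 10 members were called (9.8% against 16.5% of all genes), and without the EE mouse 9 (8.82% against 17.7%). Without both mice 31 were called, and in each of these fits all called members were decreased. The last count was 30.4% of members against 21.5% of all genes. Among the 31 were Cox4i1, Cox5a, Sdhb, Atp5b, mt-Nd1, mt-Nd2, mt-Cytb and mt-Co1, and the median nuclear log2 fold change moved from -0.03 to -0.08. In the opposite direction, it was -0.0014 without control EE mouse 3, with 45 of 95 nuclear genes positive, -0.01 without control SC mouse 3 and -0.02 without control SC mouse 1.

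The precision of these fits bounds the differences. In the average, the 95% interval lay within a log2 fold change of -0.3 to 0.3 for 93 of 102 members, and within -0.5 to 0.5 for 98. In SC alone it lay within -0.3 to 0.3 for 76 members and in EE for 79. Nuclear members had a median pooled SD of 0.0984 and mitochondrial members of 0.0722, beside 0.0861 for genes with a mean count of 500 or more. The widest spreads were those of Ndufs5 at 0.7045, Cox7b2 at 0.6585 and Cox7a1 at 0.5002, whose levels were 2.73, 0.905 and 2.28 normalized CPM per kb.

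Enrichment in control mice went with small positive values and no calls. No member was called by edgeR in EE against SC controls, and none of the 18251 genes was (0%). Unadjusted p was below 0.05 for 4 members, 2 higher and 2 lower, and for 4.21% of all genes. DESeq2 called 1 member, Ndufs5. Log2 fold changes were positive for 82 of 102 members with a median of 0.05, and for all 7 mitochondrial genes with a median of 0.08, but EE and SC controls did not overlap for only 4 members (3.92%), against 9.11% of all genes.

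Apart from Ndufs5, described further on, the smallest p belonged to Sdhc and mt-Nd5. Sdhc, an anchor subunit of complex II, was at 83.8, 76.8 and 79.7 normalized CPM in SC controls and at 91.5, 83.4 and 93.0 in EE controls (0.16, SE 0.06, adjusted p = 0.999). mt-Nd5 had a log2 fold change of 0.13 (SE 0.05, adjusted p = 0.999), and its EE value of 3956 lay below the SC value of 4022. Without control SC mouse 2 the median nuclear log2 fold change was -0.01 and without control EE mouse 2 it was 0.10. Without control EE mouse 3 it was 0.0000, with 48 of 95 genes positive, so its sign depended on single mice. The mitochondrial median was 0.02 without control EE mouse 1, the mouse with the choroid plexus markers.

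Enrichment in CBP-ifKOs gave small positive values across the nuclear members, without a call. Log2 fold changes of EE against SC were positive for 88 of 102 members, with a median of 0.10 beside -0.0025 over all genes. No member was called, against 0.011% of genes (0.00548% in each direction), and unadjusted p was below 0.05 for 21 members (20.6%), 19 higher and 2 lower, against 8.59% of genes. That number of members was 6 without CBP-ifKO SC mouse 1, 12 without CBP-ifKO SC mouse 3, 13 without CBP-ifKO EE mouse 1 and 10 without CBP-ifKO EE mouse 3, so it rested on single mice. It was 41 with the 6 CBP-ifKOs alone in the fit and 43 without both controls numbered 2. DESeq2 called 1 member, Ndufs5. EE and SC mice did not overlap for 39 members (38.2%), of which 37 were higher in EE, against 15.9% of genes.

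The median was positive in every complex. Median log2 fold changes were 0.11 for complex I, 0.08 for complex II, 0.13 for complex III, 0.06 for complex IV, 0.11 for complex V and 0.08 for assembly and associated factors. All 8 complex III genes and all 4 complex II genes were positive, as were 32 of 36 complex I genes. Mitochondrial genes were at a median of 0.04, which was 0.02 without CBP-ifKO SC mouse 3 and 0.09 without CBP-ifKO SC mouse 1. The controls numbered 2 enter this contrast only through the filter, the scaling and the shared dispersion, and the nuclear median stayed between 0.08 and 0.13 under each alternative and with each mouse left out.

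Ribosomal protein genes, also short, had similar values. Relative to the 12-mouse mean, the median of the 95 nuclear members was -0.11, -0.02 and -0.06 in the SC CBP-ifKOs and 0.03, 0.0003 and 0.06 in the EE CBP-ifKOs. That of the 77 cytosolic ribosomal protein genes was -0.09, 0.02 and -0.04 in SC and 0.02, -0.0086 and 0.07 in EE. With gene-length offsets in the fit, the nuclear median was 0.08 and the mitochondrial median 0.0070. Mouse 1 was the lowest of the 3 SC CBP-ifKOs on both gene groups.

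**Figure D4:**
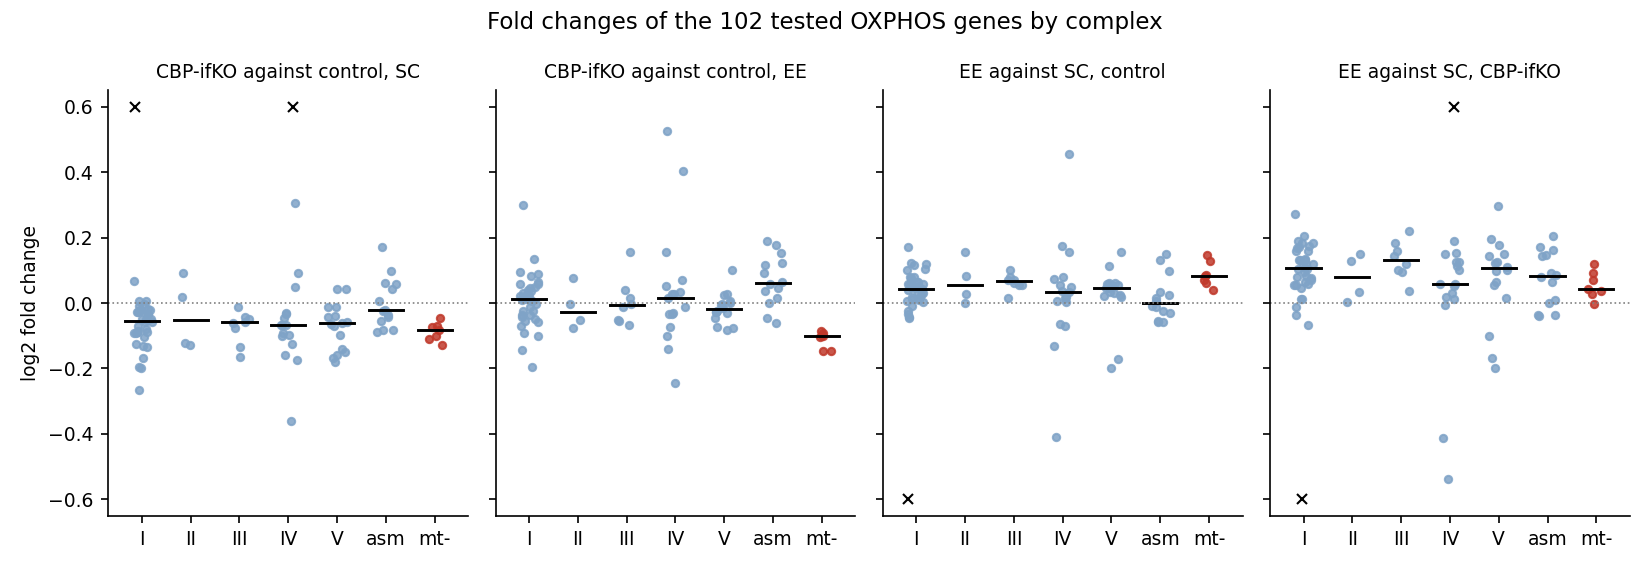
Log2 fold change of each tested member in each contrast, grouped by complex, with the median as a line; asm marks assembly and associated factors, and values beyond 0.6 in either direction are drawn as crosses at the limit. Medians of the nuclear groups lie below 0 in SC and near 0 in EE for CBP-ifKOs against controls, and above 0 for EE against SC in CBP-ifKOs.

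After Ndufs5, the smallest p belonged to Atp5k and Ndufc1. Atp5k, the small e subunit of the ATP synthase membrane part, was at 46.2, 53.7 and 54.4 normalized CPM in SC CBP-ifKOs and at 64.8, 62.5 and 62.3 in EE CBP-ifKOs, without overlap (0.30, SE 0.08, adjusted p = 0.353). In controls it was at 57.7, 57.8 and 59.2 in SC and at 68.9, 56.4 and 69.2 in EE. Ndufc1, a small membrane-arm subunit of complex I, was at 24.97, 24.0 and 23.4 in SC CBP-ifKOs and at 30.5, 27.8 and 29.1 in EE CBP-ifKOs, also without overlap (0.27, SE 0.07, adjusted p = 0.373). In controls Ndufc1 was at 26.0, 26.8 and 26.7 in SC and at 27.6, 24.8 and 30.6 in EE.

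Whether enrichment acted differently in the genotypes was asked with the interaction. No member and no gene (0%) was called, unadjusted p was below 0.05 for 0 members and 3.15% of genes, and DESeq2 called no member either. The smallest p belonged to Ndufc1 (0.21, SE 0.11), Ndufa12 (0.16, SE 0.11) and Ndufs4 (0.14, SE 0.10), all 3 being accessory subunits of complex I, each with an adjusted p of 0.9998. The median interaction was 0.06 over nuclear and -0.03 over mitochondrial members. It was 0.0080 over nuclear members without control EE mouse 2 and 0.12 without control SC mouse 2. Over mitochondrial members it was 0.02 without control EE mouse 1 and -0.07 without CBP-ifKO EE mouse 3. Intervals were wide, with 54 of 102 members within -0.3 to 0.3.

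Environment and interaction were also tested together, with a further condition of an absolute log2 fold change over 0.5 in controls. Under this rule 1 member, Ndufs5, was called, or 0.98% against 0.0329% of genes, which is 6 genes, 0.0164% in each direction. Ndufs5 encodes an accessory subunit of complex I. It was at 4.08, 0.793 and 3.88 normalized CPM in SC controls and at 0.698, 0.849 and 0.768 in EE controls (log2 fold change -1.92, SE 0.45, joint adjusted p = 0.0371). In CBP-ifKOs it was at 4.06, 5.95 and 4.29 in SC and at 1.14, 0.640 and 1.06 in EE (-2.33, SE 0.41, adjusted p = 0.0933 in that contrast alone). The SC groups were high except for control mouse 2, which lay among the EE mice. The joint call was kept without control SC mouse 2, control EE mouse 1 or control EE mouse 2, and lost without any of the other 9 mice, with an adjusted p of up to 0.153. Without control SC mouse 2, Ndufs5 was also called for EE in controls alone (adjusted p = 0.00384) and in CBP-ifKOs alone (adjusted p = 0.00071).

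The counts of Ndufs5 cannot be read apart from those of its copy. BC002163 is a single-exon processed pseudogene at chr16:42955631-42955949 on the plus strand, whereas Ndufs5 has 3 exons at chr4:123712710-123718202 on the minus strand. Over the 318 coding bases the sequences were 99.4% identical, with 2 differences, T81C and A105G, counted from the first coding base of Ndufs5 with its base given first, and with an identical run of 213 bases. Of the 903 windows of 50 bases in Ndufs5 exons, 196 (21.7%) recurred elsewhere. The first 150 coding bases are shown because they hold both positions by which a read inside the coding sequence can be assigned (GRCm38, Ndufs5 at chr4:123715930-123716079 on the minus strand, BC002163 at chr16:42955631-42955780 on the plus strand, capitals at the 2 differences).
Ndufs5: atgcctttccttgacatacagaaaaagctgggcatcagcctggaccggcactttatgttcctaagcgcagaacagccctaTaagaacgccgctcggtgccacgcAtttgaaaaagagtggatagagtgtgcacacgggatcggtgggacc
BC002163: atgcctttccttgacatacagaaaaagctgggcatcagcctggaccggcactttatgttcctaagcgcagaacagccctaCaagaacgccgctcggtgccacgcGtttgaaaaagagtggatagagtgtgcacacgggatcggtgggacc

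Counts of the gene and its copy went in opposite directions. Ndufs5 had counts of 110, 21 and 107 in SC controls, 136, 172 and 162 in SC CBP-ifKOs, 19, 22 and 21 in EE controls and 44, 24 and 36 in EE CBP-ifKOs. BC002163 had counts of 170, 269 and 151 in SC controls, 166, 132 and 224 in SC CBP-ifKOs, 303, 301 and 432 in EE controls and 576, 480 and 424 in EE CBP-ifKOs. Ndufs5 took 39.3% to 56.6% of the counts of the pair in 5 of 6 SC mice, 7.24% in control SC mouse 2, and 4.64% to 7.83% in the 6 EE mice.

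The sum of the pair did not follow Ndufs5. It was at 10.4, 10.9 and 9.36 normalized CPM in SC controls, 9.02, 10.5 and 10.2 in SC CBP-ifKOs, 11.8, 12.5 and 16.6 in EE controls and 16.01, 13.4 and 13.5 in EE CBP-ifKOs. With both rows added before the fit, the log2 fold change in controls was 0.41 (SE 0.13, joint adjusted p = 0.179), of the opposite sign and not called. BC002163 on its own was called with a log2 fold change of 0.81 in controls (SE 0.19, joint adjusted p = 0.0197) and of 1.37 in CBP-ifKOs (SE 0.19, adjusted p = 0.0432). The joint call of BC002163 was lost without CBP-ifKO SC mouse 1, 2 or 3, control EE mouse 3 or CBP-ifKO EE mouse 2, with an adjusted p of up to 0.099. The call in CBP-ifKOs alone was lost without any 1 of the 6 CBP-ifKOs and with their counts halved, when 0 genes were called in that contrast. Whether mice differ at these bases was not tested, and a change of Ndufs5 transcript cannot be told apart from a different placement of reads.

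**Figure D5:**
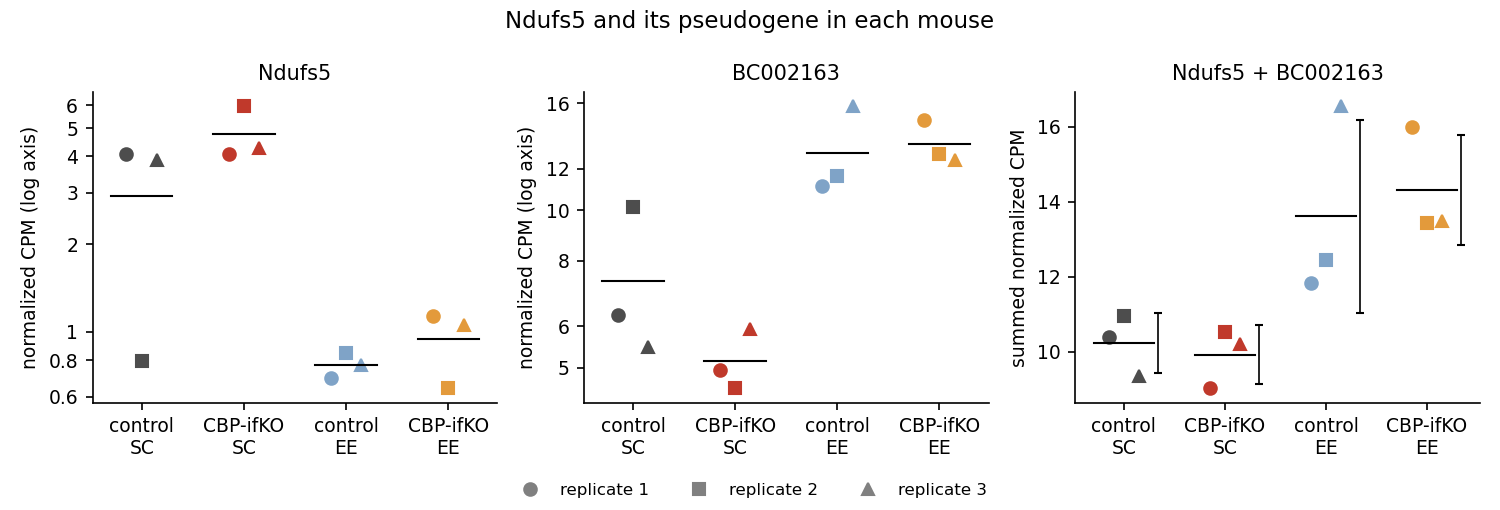
Normalized CPM of Ndufs5 and of its processed pseudogene BC002163, both on log axes, and of their sum in each mouse, by group. Circles, squares and triangles are mice 1, 2 and 3, and the black line is the group mean. The bar, drawn for the sum only, is the SD. Ndufs5 is low where BC002163 is high, and control SC mouse 2 lies with the EE mice.

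Promoter sequence was described for nuclear members because several share known binding motifs. RefSeq entries (GRCm38.p6) were matched for 79 of 98 nuclear members, with 83 start sites, and the 250 bases upstream were searched on both strands. The letters GCGCA and GCGC with any base between them, bound by NRF1, were found upstream of 15 of 83 sites (18.1%), against 3.74% of 32851 in all. CCGGAAG, bound by GABPA, was found at 16 (19.3%) against 6.91%, and the cAMP response element TGACGTCA, bound by CREB, a partner of CBP, at 4 (4.82%) against 1.55%. AAGATGGCG, bound by YY1, and TCAAGGTCA, bound by ERR receptors, were found at 1 each (1.2%), against 0.606% and 0.387%.

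The NRF1 letters were held by 14 members. Of the nuclear members named for a small p, Ndufa5, Ndufs5 and Atp5k were among them, and Ndufa12, Ndufa13, Ndufc1, Ndufs4, Cox7a2 and Sdhc were not. As examples of the match, the 150 bases upstream of the starts of the first 3 are shown with that match in capitals, at chr6:24527691-24527840 for Ndufa5, chr5:108434400-108434549 for Atp5k and chr4:123718187-123718336 for Ndufs5, each on the minus strand. A second start of Ndufa5 in the same table held none of the 5 motifs in this window. A match is a description of the letters and not of binding.
Ndufa5: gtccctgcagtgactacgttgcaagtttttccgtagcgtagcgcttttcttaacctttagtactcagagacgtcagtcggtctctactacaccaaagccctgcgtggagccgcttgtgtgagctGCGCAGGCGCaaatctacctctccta
Atp5k: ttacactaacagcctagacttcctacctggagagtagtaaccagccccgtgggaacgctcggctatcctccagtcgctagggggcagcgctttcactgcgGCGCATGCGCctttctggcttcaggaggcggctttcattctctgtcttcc
Ndufs5: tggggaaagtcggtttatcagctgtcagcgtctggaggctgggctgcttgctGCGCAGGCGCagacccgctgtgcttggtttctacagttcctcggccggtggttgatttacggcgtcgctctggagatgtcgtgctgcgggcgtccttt

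Regulators of these genes were mostly not called, beside 1.51% of all genes increased in SC, 1.03% in EE and 6.64% in the average. Of 12 nuclear regulators, Sirt1, a protein deacetylase that acts on the coactivator PGC-1α, rose in CBP-ifKOs in SC (0.38, SE 0.08, adjusted p = 0.0163) and in EE (0.34, SE 0.08, adjusted p = 0.0421). The others were not called in any comparison. Averaged log2 fold changes were -0.12 for Nrf1 (adjusted p = 0.168), -0.04 for Gabpa, -0.10 for Esrra and -0.02 for Ppargc1a, which encodes PGC-1α. Of 16 genes for the expression of mitochondrial DNA, Ssbp1, which binds single-stranded mitochondrial DNA, rose in the average (0.22, SE 0.06, adjusted p = 0.0132), and the mitochondrial transcription factor Tfam was at 0.01 and the RNA polymerase Polrmt at 0.16 (adjusted p = 0.0841).

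Electron carriers, assembly factors and the pathways that feed the chain gave a few calls in each direction. Of 32 tested carrier and assembly genes, 4 rose in the average and none fell, beside 6.64% of all genes increased: Cox18 (0.20), Cox19 (0.14) and Cox15 (0.13), which serve complex IV, and Foxred1 (0.12), which serves complex I. Of 17 pyruvate dehydrogenase and citric acid cycle genes, Idh3b, a subunit of NAD-dependent isocitrate dehydrogenase, fell in SC by 0.21 (SE 0.05, adjusted p = 0.0428). Of 16 carriers and pores of the mitochondrial membranes, Slc25a22, a glutamate carrier, fell by 0.35 in SC (SE 0.05, adjusted p = 0.00374) and by 0.41 in EE (SE 0.06, adjusted p = 0.00483). Among all tested genes, 4.02% were decreased in SC, 3.53% in EE and 10.3% in the average. The outer-membrane channels were called in opposite directions in the average, with Vdac1 at -0.13 (adjusted p = 0.0226) and Vdac3 at 0.15 (adjusted p = 0.0409). None of these genes was called for EE against SC in either genotype or in the interaction.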

How the data were processed

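Total hippocampal RNA of 12 mice was sequenced by the authors as 50 bp single-end reads. Per the labels and the study's methods, reads were trimmed with Trim Galore 0.6.4, aligned with STAR 2.6.1 to mm10, filtered for mapping quality above 10 and counted on exons with Rsubread and an Ensembl GRCm38 annotation. What the authors deposited is a matrix of raw gene counts in which both runs of a mouse are merged. Strandedness is not given in the sources used here, and 35 of 111 members share exonic bases with a gene on the opposite strand. All counts of CBP-ifKOs were even numbers. Halving them kept the counts of called members at 0, 0, 2, 0, 0, 0 and 1.

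Genes were kept with filterByExpr and tested in edgeR 4.0.16 (R 4.3.3) with TMM factors and the quasi-likelihood F test, adjusted by Benjamini-Hochberg over all tested genes. Genotype in SC and in EE used the 6 mice of that housing, and all other contrasts used 12 mice with 1 coefficient per group. DESeq2 1.42.0 was an alternative. The code was tested on simulated counts. The members and lists were chosen with earlier results of these data known. Named members were those called, otherwise the 3 with the smallest p, the mitochondrial genes, core subunits, isoform pairs, the highest and lowest of each complex, and Ndufs5 with its copy, apart from results that are not reported here. Levels between genes are per kb of exon. With 3 mice against 3 an exact permutation test cannot go below p = 0.1.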

Additional observations from a re-analysis of the deposited data

How the results depend on the processing

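Counts of called members were 0 in SC, 0 in EE, 2 in the average, 0 for enrichment in controls, 0 in CBP-ifKOs, 0 for the interaction and 1 jointly. In SC, DESeq2, gene-length offsets, the replicate block (mice of equal number paired), the block with length offsets, and all 12 mice in the fit gave 1 each (Ndufa5), and no low-count filter 2. In EE, length offsets gave 1. The average gave 3 with DESeq2 (with Sdha), 8 with no filter, 1 with a 1 CPM filter, 1 without mitochondrial genes in the table, 4 with length offsets and 31 without both controls numbered 2. For controls, DESeq2, no filter and leaving out both controls numbered 2 gave 1 each. For CBP-ifKOs, DESeq2, the replicate block, the block with length offsets, the 6 mice alone and leaving out both controls gave 1 each, and no filter 2. mt-Nd5 lost its averaged call with the 1 CPM filter, with length offsets (block included) and without both controls. The labels do not say whether mice of equal number belong together. Correlations of their deviations ran from -0.0675 to 0.305, and the highest was that of the controls numbered 2. Between EE controls and EE CBP-ifKOs each mouse correlated best with its own number, but between other groups not every mouse did. Leaving out 1 mouse gave 0 to 16 in SC, 0 to 1 in EE, 1 to 10 in the average, 0 to 1 for either enrichment contrast and 0 to 1 jointly. The interaction stayed at 0 throughout. Summing Ndufs5 with BC002163, like leaving out the controls, was chosen after seeing the data: it gave 0 joint calls and reversed Ndufs5 to 0.41. Of 6724 values of 51 named members under alternatives, 6633 kept their side of the threshold without reversing a call, and 337 had another sign than reported. Precision was lowest for Ndufs5, Cox7a1 and Cox7b2, which had few counts.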

Other observations

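The ribosomal RNAs of the mitochondrial genome, which are not protein-coding and so no members, were chosen for description after their values were seen. The sum of mt-Rnr1 and mt-Rnr2 was 9769, 9549 and 9737 normalized CPM in SC controls and 7856, 8255 and 7536 in SC CBP-ifKOs. In EE it was 9099, 8076 and 9025 in controls and 7428, 6405 and 7695 in CBP-ifKOs. All CBP-ifKOs were below all controls of the same housing. Averaged over housings, mt-Rnr1 fell by 0.30 on the log2 scale (SE 0.05, adjusted p = 0.000646) and mt-Rnr2 by 0.29 (SE 0.04, adjusted p = 0.000276), in edgeR's quasi-likelihood test with Benjamini-Hochberg adjustment. In SC alone both were called, with adjusted p of 0.00783 and 0.00276. In EE alone both missed the threshold, with adjusted p of 0.0523 and 0.0623. They were called in 9 and 7 of 10 alternative fits of EE. With 1 EE mouse left out, each was called in only 1 of 6 fits, with adjusted p up to 0.169 and 0.211. With 1 SC mouse left out, the SC call was kept in 4 of 6 fits for mt-Rnr1 and in 6 of 6 for mt-Rnr2. Both averaged calls were kept in each of 12 fits that left out 1 mouse. The protein-coding mitochondrial genes had a median of -0.10 in the same average, and the difference between the rRNAs and these genes was not tested.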
